A study of Mus musculus with 6 samples.

Results

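The clustered protocadherins are cell adhesion proteins encoded side by side on mouse chromosome 18, and their transcripts were followed here in whole testes with and without the kinesin KIFC1. The members are the 57 protein-coding genes of that chromosome whose symbols begin with Pcdha, Pcdhb or Pcdhg, out of 51826 gene identifiers counted. They comprise 14 genes of the alpha cluster, 22 of the beta cluster and 21 of the gamma cluster. They were chosen by measured values, namely a lower level of Pcdhga7 and a higher level of Pcdhga4 in the knockout. The knockout against wild-type values of the members, and the counts of members called in the fit across all genes, are therefore a description and no test of these genes. RNA was sequenced in bulk from 3 wild-type and 3 KIFC1 knockout testis samples of C57BL/6J mice aged 8 weeks, with no treatment named. How the knockout allele was made, and whether it acts in all cells, is not given in the sources used here. Whether the 3 samples of each group are separate animals is not stated, and the p-values given for other genes reflect sample-to-sample spread that may be technical.

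The alpha and gamma clusters are built alike. Each gene has its own promoter and its own large variable exon, which holds the extracellular cadherin repeats, and that exon is spliced to a few constant exons shared by all genes of the cluster. Beta genes consist of a variable exon alone, with no shared cytoplasmic part. In neurons each cell switches on its own small set of promoters, under the influence of CTCF, cohesin and DNA methylation, and the resulting surface code lets a cell recognise its own branches. The so-called C-type genes at the ends of the alpha and gamma clusters are known for less selective expression.

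Library totals ran from 29274603 to 38703606 counts. Levels are counts per 1000000 counts (CPM) after TMM scaling, which corrects each library for its overall make-up, and 3 counts corresponded to between 0.0763 and 0.0986 CPM. That floor, like the intervals of a count, reflects counting error alone. Kifc1 reached 15.5, 16.1 and 14.7 CPM in wild type, against 0.326, 0.737 and 0.282 CPM in knockout 1, 2 and 3, or 2.9% of the wild-type mean. Knockout 2 stood apart from the other knockout libraries, with a chi-square per degree of freedom of 135.1 and 123.4 against them, where knockout 1 and 3 had 31.0 between them. Germ cell and somatic markers of the testis were present. Of 8 epididymis markers, 5 were at 0 in every library and 2 were above 1 CPM in every library. The epididymis markers summed to 166 to 210 CPM in wild type and 144 to 281 CPM in knockout, with overlap. Whether epididymal cells were present was not tested. The elongating spermatid markers summed to between 21937 and 23823 CPM in wild type and between 16274 and 21171 CPM in knockout, without overlap. Of these 8 markers, 5 had negative and 3 positive log2 fold changes, and edgeR called 2 lower. The sums of the spermatocyte, round spermatid, Sertoli and Leydig markers overlapped. EdgeR called 2 of 8 spermatocyte markers higher and 1 of 8 spermatogonial markers lower, beside 3.11% higher and 5.12% lower of all tested genes. Log2 fold changes also ran with GC content (Spearman rho -0.525 over 12751 genes, none of them an independent replicate). The part of cell composition in what follows was not tested, and in bulk samples fewer cells of a type and less RNA per cell cannot be told apart.

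Of the 57 genes, 22 reached a mean of 1 CPM over the 6 libraries: 16 in the gamma cluster, 4 in the alpha cluster and 2 in the beta cluster. No gene was at 0 in all libraries, but 15 were at 0 in at least 1, and 10 of these were beta genes. The filter on low counts, which asks for about 0.286 CPM in 3 libraries, kept 12 alpha, 8 beta and 17 gamma genes, 37 in all. Pcdhga4 passed it only through its knockout libraries. In the heat map of all members the gamma cluster is the brightest block, and it is also the block whose bright cells change from one library to the next.

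**Figure D1:**
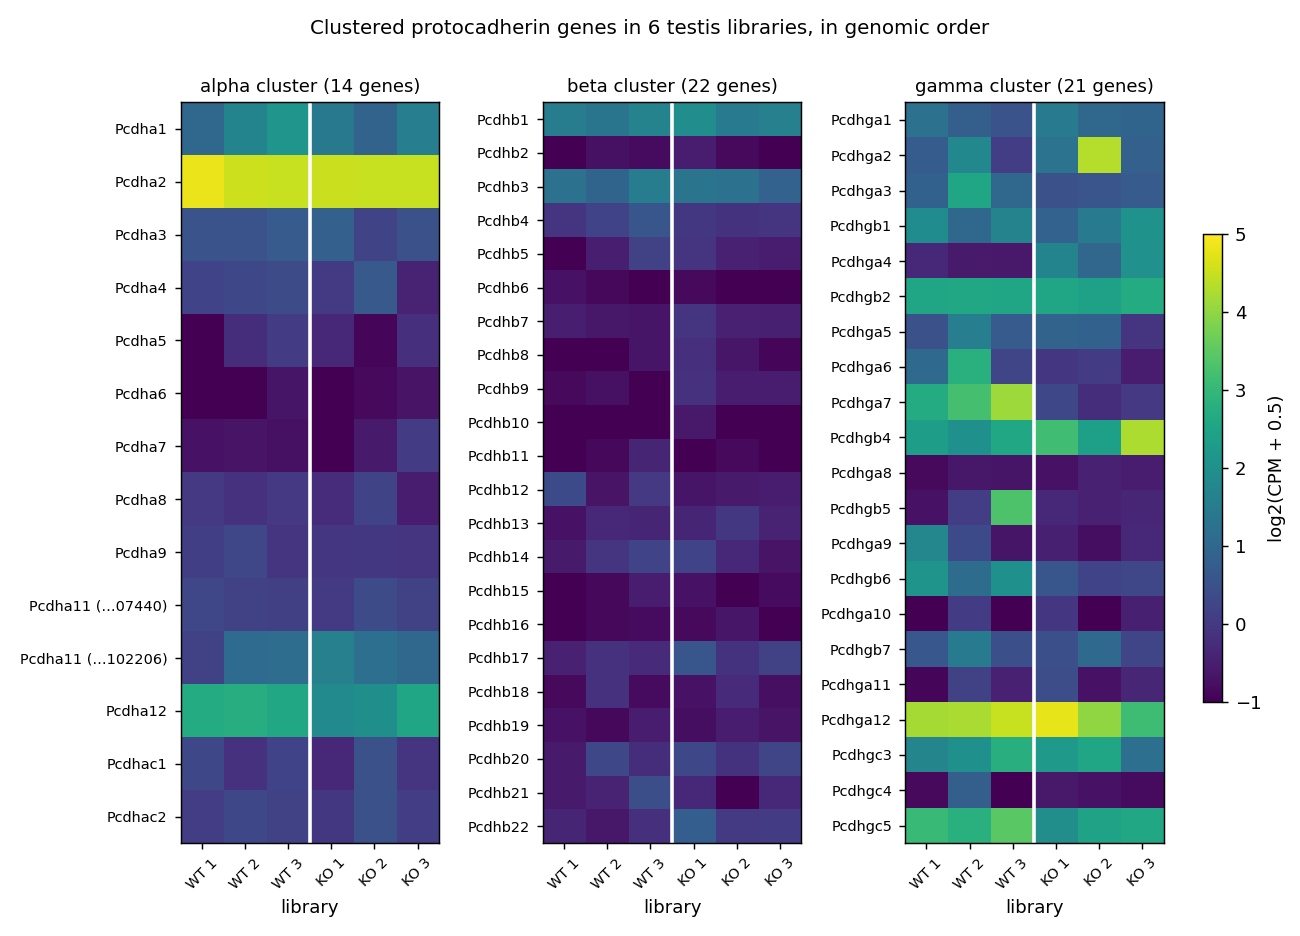
Levels of all 57 genes, as log2(CPM + 0.5) in colour, with genes in genomic order down each panel and the 6 libraries (WT, wild type; KO, KIFC1 knockout) across. Pcdha2 and Pcdhga12 are bright in every library, most beta genes are near the dark end, and single bright cells such as Pcdhgb5 in wild type 3 (9.53 CPM) and Pcdhga2 in knockout 2 (19.7 CPM) stand out in the gamma panel.

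Summed over its 21 genes, the gamma cluster gave 62.6, 74.5 and 88.9 CPM in wild type and 64.3, 66.6 and 55.2 CPM in knockout. The highest library was 1.61 times the lowest and the groups overlapped. The alpha cluster summed to 40.9, 38.5 and 38.6 CPM in wild type and 34.4, 34.5 and 35.9 CPM in knockout (39.4 ± 1.36 and 35.0 ± 0.807, SD, n = 3). Every knockout library was below every wild-type library there, by a ratio of the means of 0.888. The beta cluster had the smallest sum, with 7.19, 7.76 and 11.2 CPM in wild type and 12.6, 8.42 and 7.98 CPM in knockout, which overlapped. These sums rest on 1764 to 2929 counts a library for gamma, 1147 to 1514 for alpha and 245 to 462 for beta.

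In the gamma cluster, Pcdhga7 and Pcdhga4 carried the change for which the genes were chosen. Both belong to the A type of gamma genes, whose variable exons encode separate adhesion domains. Pcdhga7 (ENSMUSG00000103472, chromosome 18, 37714764 to 37841873, plus strand, mm10) measured 5.96, 8.86 and 17.0 CPM in wild-type samples and 0.734, 0.369 and 0.501 CPM in knockout samples. It was thus well expressed in every wild-type library and low in every knockout library, with 203, 348 and 518 counts against 27, 13 and 16. The means were 10.6 ± 5.74 and 0.534 ± 0.185 CPM (SD, n = 3), a log2 fold change of -4.30 (SE 0.46) that left 5.03% of the wild-type mean.

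Pcdhga4 (ENSMUSG00000103677, 37685210 to 37841873, same strand) had the opposite pattern. It stood at 0.294, 0.178 and 0.164 CPM in wild type, from 10, 7 and 5 counts, and at 2.77, 1.47 and 3.60 CPM in knockout, from 102, 52 and 115 counts. The mean was 12.3 times higher in knockout and the log2 fold change was 3.60 (SE 0.46). Its exons share 1038 bases with those of Pcdhgb1, a B-type gamma gene, outside the constant exons. Pcdhgb1 itself had mean levels of 2.52 ± 0.886 and 2.44 ± 1.18 CPM (SD, n = 3).

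As shares of all gamma counts, which do not depend on the library scaling, Pcdhga7 made up 9.53%, 11.9% and 19.1% in wild type and 1.14%, 0.553% and 0.907% in knockout. Pcdhga4 made up 0.469%, 0.239% and 0.185% in wild type and 4.31%, 2.21% and 6.52% in knockout. Neither gene's groups overlapped by this measure.

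**Figure D2:**
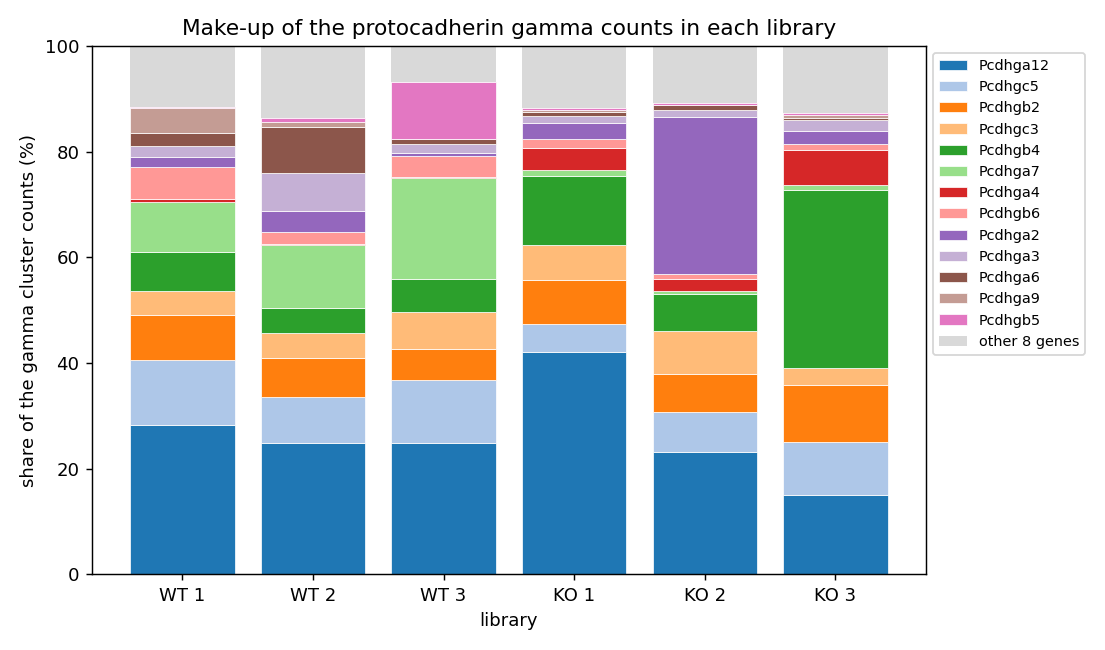
Share of the gamma cluster counts (%, vertical axis) taken by 13 genes and by the other 8 together in each of the 6 libraries. Pcdhga12 takes between 15.1% and 42.0%, the Pcdhga7 band is wide only in the wild-type libraries, and Pcdhga2 in knockout 2 (29.6%) and Pcdhgb4 in knockout 3 (33.7%) are the widest bands of their libraries.

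Besides these, 1 more member passed the call threshold, an edgeR adjusted p under 0.05 over all tested genes. Pcdhgb6, of the B type, had 3.82, 1.68 and 3.55 CPM in the wild-type libraries and 1.03, 0.652 and 0.720 CPM in the knockout libraries (log2 fold change -1.90, SE 0.39). Its groups did not overlap, although wild type 2 lay nearer to knockout 1 than to the other wild-type libraries. In all, 1 of the 17 tested gamma genes was called higher and 2 lower, and none of the 12 alpha or 8 beta genes was called. At an unadjusted edgeR p under 0.05 there were 0 alpha, 1 beta and 9 gamma genes, beside 27.1% of all tested genes. DESeq2 called 0 alpha, 0 beta and 6 gamma genes, beside 18.3% of all the genes it tested. Without knockout 2, edgeR called 4 members. Without wild type 2 or knockout 1 it called none, and without wild type 1 it called Pcdhga7 alone. The call of Pcdhgb6 was also lost without wild type 3 or knockout 3, and after per-library GC content and exon length trends were taken out (-1.64). In that last fit the called members were Pcdhga7 and Pcdhga4, beside 0.0837% of all tested genes. The 3 called genes are 8.11% of the 37 tested members, beside 8.23% of all 21518 tested genes (3.11% higher and 5.12% lower). Of the 3, Pcdhga7 and Pcdhga4 are the genes on which the choice rested, and Pcdhga4 was tested only through its high group, so nothing is read from these counts.

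Groups that did not overlap were seen in 3 tested members that were higher and 6 that were lower in knockout, beside 14.6% and 18.1% of all tested genes (32.7% in either direction). The 3 were Pcdhga4, Pcdhb17 and Pcdhb22. The 6 were Pcdhga7, Pcdhgb6, Pcdhga3, Pcdhga6, Pcdhgc5 and Pcdha12. The median log2 fold change was -0.44 over the 17 gamma genes, -0.16 over the 12 alpha genes and 0.02 over the 8 beta genes, against -0.01 over all tested genes. In absolute size the medians were 1.22, 0.20 and 0.58, against 0.38. The plot of fold changes along the clusters shows the gamma genes spread to both sides of 0, with 5 above and 12 below.

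**Figure D3:**
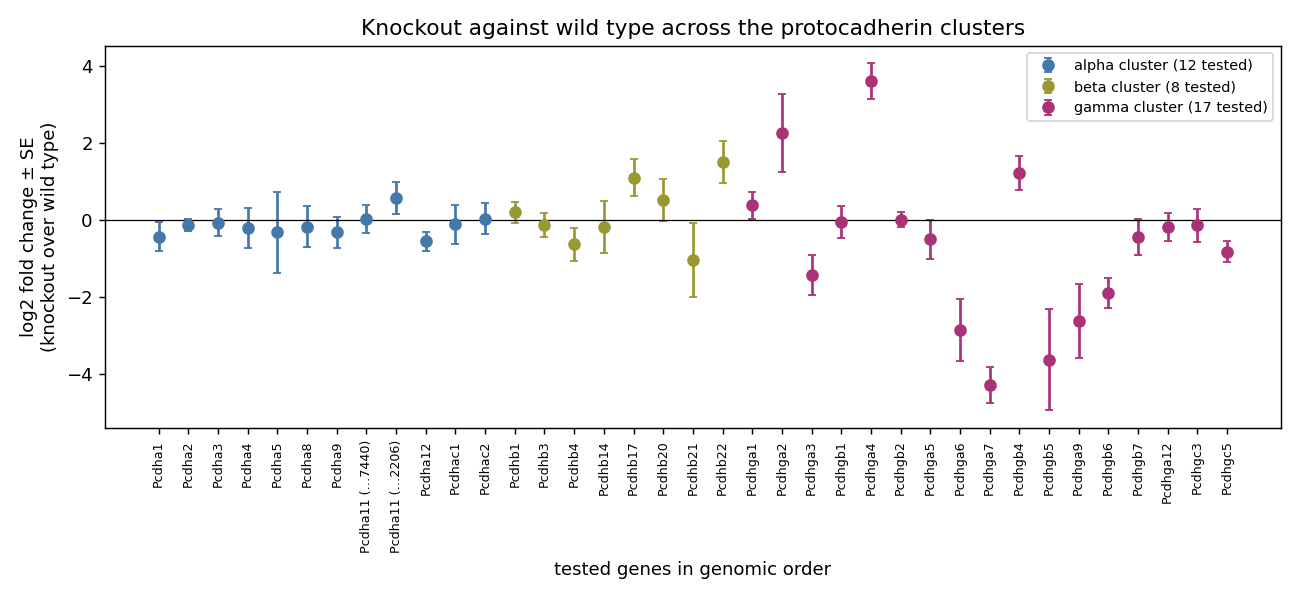
Log2 fold change of knockout over wild type (points, with SE as bars) for the 37 tested genes in genomic order, coloured by cluster. Gamma genes range from -4.30 (Pcdhga7) to 3.60 (Pcdhga4), and those with the longest bars, such as Pcdhgb5 (-3.63, SE 1.31), are genes with 1 library far above the rest.

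Apart from these, the gamma cluster was marked by genes that were high in a single library. Pcdhgb5 reached 0.117, 0.560 and 9.53 CPM in wild type, against 0.299, 0.227 and 0.282 CPM in knockout. Its level in wild type 3 was 17.0 times the next highest, and the log2 fold change of -3.63 (SE 1.31) was -0.35 without that library. Pcdhga2 measured 1.17, 3.003 and 0.559 CPM in wild-type samples and 1.93, 19.7 and 1.28 CPM in knockout samples, with knockout 2 at 6.57 times the next highest library. It supplied 29.6% of all gamma counts in knockout 2 (exact 95% binomial interval 27.8% to 31.5%), more than any other gene there, and its log2 fold change of 2.26 (SE 1.01) was 0.01 without that library.

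The remaining genes of this kind were high in wild type 1 or 2. Pcdhga9 stood at 2.91 CPM in wild type 1, against 0.763 and 0.132 CPM in the other wild-type libraries and 0.085 to 0.313 CPM in knockout. Pcdhga6 had 1.56, 6.49 and 0.690 CPM in the wild-type libraries and 0.462, 0.539 and 0.188 CPM in the knockout libraries. Pcdhga3 reached 1.32, 5.32 and 1.54 CPM in wild type, against 0.896, 0.992 and 1.16 CPM in knockout. Wild type 2 was thus the high library of both, and the groups of both were separate but close. Without wild type 2 their log2 fold changes went from -2.87 to -1.49 and from -1.43 to -0.50. The C-type gene Pcdhgc4, which did not pass the filter, had 1.25 CPM in wild type 2 and at most 0.163 CPM elsewhere.

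Taking as the criterion a highest library of at least 1 CPM and at least 3 times every other, 6 of the 21 gamma genes (28.6%) met it, beside 78 of all 51826 identifiers (0.151%). None of the 14 alpha or 22 beta genes met it. However, 10 of these alpha and 20 of these beta genes had a mean under 1 CPM, beside 5 of the 21 gamma genes. Genes below 1 CPM in every library cannot meet it, so it does not compare the clusters on equal terms. Under that floor, Pcdhb11 was 4.64 times the next library in wild type 3 and Pcdha7 3.13 times in knockout 3. Among tested genes, 5 of 17 gamma genes (29.4%) and 32 of 21518 in all (0.149%) met the criterion. Within the gamma genes' range of mean level, 26 of the 10785 tested genes did (0.241%). By library, these were 1 gene in wild type 1, 3 in wild type 2, 1 in wild type 3, 1 in knockout 2 and none in knockout 1 or 3. This criterion, and the genes Pcdhgb5, Pcdhga2, Pcdhga3, Pcdhga6, Pcdhga9, Pcdhgb2, Pcdha7, Pcdhb11, Pcdhb17 and Pcdhb22, were chosen after the values were seen.

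**Figure D4:**
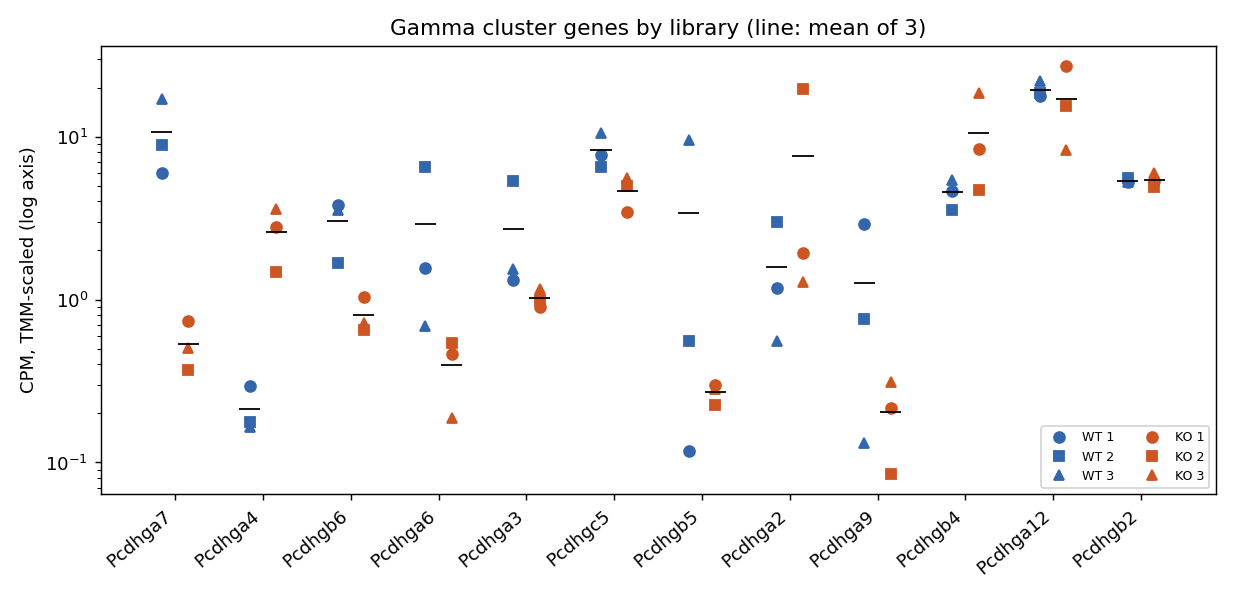
CPM (log axis) of 12 gamma cluster genes in the 3 wild-type libraries (blue) and 3 KIFC1 knockout libraries (orange), with a line at each mean. The groups are wide apart for Pcdhga7 and Pcdhga4, 1 point lies far above the rest for Pcdhgb5 and Pcdhga2, and the 6 points of Pcdhgb2 lie together.

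Measured within groups, as the SD of log2(CPM + 0.5) around the group means, the median spread was 0.56 for the 17 tested gamma genes. It was 0.27 for the 12 alpha genes, 0.31 for the 8 beta genes and 0.29 for the 10785 genes of the gamma genes' mean level. Of the 17 gamma genes, 6 lay above the 95th percentile of those genes (0.64), and Pcdhgb5 (1.51) and Pcdhga2 (1.48) lay above their 99th (0.97). The alpha and beta genes were not matched for level. Over all members the median level was 0.644 CPM for alpha, 0.254 for beta and 1.84 for gamma, and the added 0.5 CPM narrows the SD of low genes. The median fold of the highest over the lowest of the 6 libraries was 5.58 for the tested gamma genes. It was 4.29 for beta, 2.38 for alpha and 2.17 for the 10785 genes. The within-group SD does not use the difference between the groups, but it was looked at after the values were seen.

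**Figure D5:**
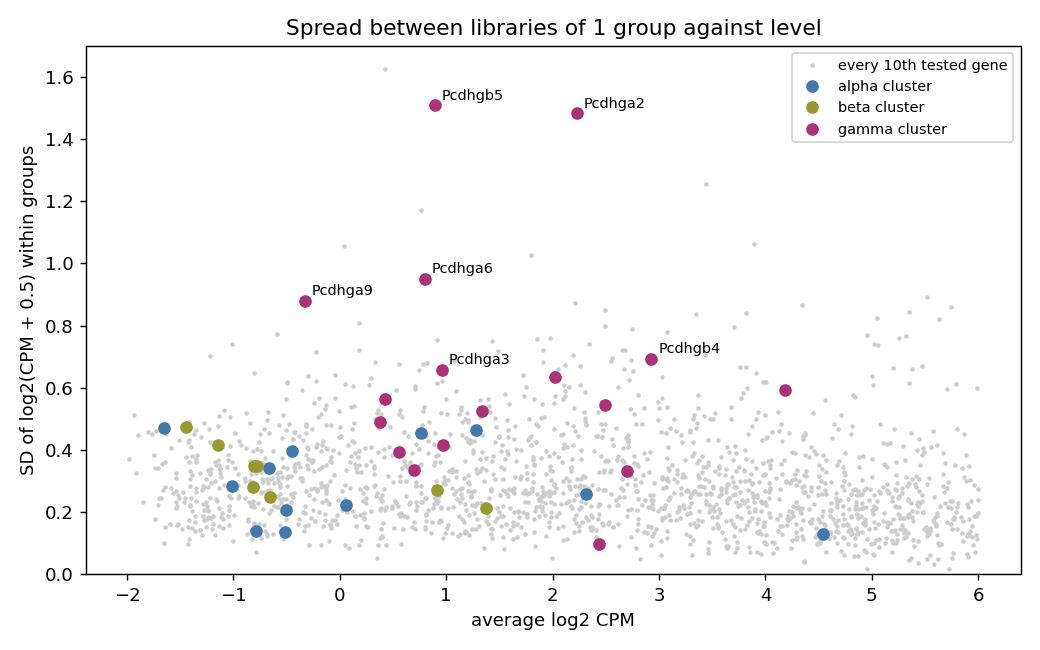
Within-group SD of log2(CPM + 0.5) (vertical axis) against mean log2 CPM (horizontal axis) for the tested members by cluster, over every 10th tested gene in grey. Pcdhgb5 and Pcdhga2 stand highest of the members, at 1.51 and 1.48, while alpha and beta genes lie within the grey cloud. Some grey genes have a larger SD, such as 1.63 at a mean log2 CPM of 0.425. Another, at 2.16, lies beyond the top of the axis.

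Other gamma genes were present in every library. Pcdhga12, the last of the A-type genes, supplied the most gamma counts over the 6 libraries, with 17.7, 18.5 and 22.0 CPM in wild type and 27.0, 15.5 and 8.32 CPM in knockout (log2 fold change -0.19, SE 0.36). The knockout libraries lay on both sides of the wild-type range. Pcdhgb4 measured 4.64, 3.56 and 5.42 CPM in wild-type samples and 8.39, 4.71 and 18.6 CPM in knockout samples (1.22, SE 0.45), where knockout 3 was highest and knockout 2 lay inside the wild-type range. It was called higher when knockout 2 was left out (1.57), and its log2 fold change was 0.55 without knockout 3. Pcdhgb2 was the most even of the genes named here, with 5.26, 5.57 and 5.26 CPM in wild type and 5.32, 4.88 and 5.94 CPM in knockout.

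Of the C-type gamma genes, Pcdhgc5 had 7.75, 6.46 and 10.6 CPM in the wild-type libraries and 3.42, 4.96 and 5.54 CPM in the knockout libraries (log2 fold change -0.83, SE 0.27), with no overlap. Pcdhgc3, which is known to act in Wnt signalling through Axin1, reached 2.82, 3.51 and 6.34 CPM in wild type, against 4.27, 5.36 and 1.78 CPM in knockout (-0.15), with overlap. The C-type alpha genes were low, and their groups overlapped. Pcdhac1 had 0.599 ± 0.171 and 0.548 ± 0.319 CPM and Pcdhac2 had 0.640 ± 0.0911 and 0.653 ± 0.223 CPM (SD, n = 3, wild type and knockout).

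The alpha cluster was dominated by Pcdha2. It measured 28.0, 22.9 and 22.1 CPM in wild-type samples and 22.4, 22.1 and 22.2 CPM in knockout samples (log2 fold change -0.13, SE 0.16) and supplied between 57.2% and 68.4% of the alpha counts of every library. Pcdha12 was second, with 5.99, 6.13 and 5.46 CPM in wild type and 3.12, 3.49 and 5.29 CPM in knockout (-0.56, SE 0.25). Knockout 3 lay just below the lowest wild-type library there, and the other knockout libraries further down. Pcdha1 had 1.53, 2.77 and 3.88 CPM in the wild-type libraries and 2.17, 1.39 and 2.47 CPM in the knockout libraries (-0.44, SE 0.38), with overlap. In contrast to the gamma cluster, the same gene, Pcdha2, led the alpha cluster in all 6 libraries.

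By counts, the beta cluster was led in all 6 libraries by Pcdhb1, followed by Pcdhb3. Pcdhb1 reached 2.38, 2.04 and 2.70 CPM in wild type, against 3.31, 2.21 and 2.57 CPM in knockout (log2 fold change 0.19). Pcdhb3 measured 1.91, 1.43 and 2.43 CPM in wild-type samples and 1.98, 1.87 and 1.35 CPM in knockout samples (-0.14). The groups of both overlapped. Pcdhb4 had 0.440, 0.662 and 1.02 CPM in the wild-type libraries and 0.489, 0.425 and 0.438 CPM in the knockout libraries (-0.64), with overlap. Pcdhb17 (0.324 ± 0.0863 and 0.694 ± 0.309 CPM) and Pcdhb22 (0.270 ± 0.121 and 0.755 ± 0.405 CPM, SD, n = 3) were higher in every knockout library than in any wild-type library, at low counts.

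Levels of different genes can be compared only per length. Per kilobase of exon not shared with another gene on the same strand, Pcdha2 was highest in wild type at 9.73 ± 1.28 CPM, followed by Pcdhga12 at 4.27 ± 0.509, Pcdhga7 at 3.43 ± 1.85 and Pcdha12 at 2.37 ± 0.144 (SD, n = 3). The spread of Pcdhga7 overlapped those of Pcdhga12 and Pcdha12, so its place in this order is not resolved. In knockout, Pcdha2 had the highest mean, at 8.88 ± 0.0600 CPM per kilobase. Pcdhga12 (3.72 ± 2.07), Pcdhga2 (2.97 ± 4.07) and Pcdhgb4 (2.94 ± 2.003) came next, and their spreads overlapped, so their order is not resolved. Pcdhga7 stood at rank 27 by its mean, at 0.172 ± 0.0596.

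What a count of one of these genes holds depends on the shared exons. Each alpha gene has 2860 exon bases that lie in exons of 10 or more members, and each gamma gene 2116 to 2119, whereas no beta gene has any. A read inside the constant exons cannot be given to 1 gene. Annotated genes of the region with no base of their own on their strand (Gm42416, Gm37013 and Gm37388) had 0 counts in every library. Variable exons can also resemble each other. Of the 50-base words in the non-constant exons, 0.0323% of those of Pcdhga7 occur in another gene, beside 12.1% for Pcdhgb6, 38.2% for Pcdhga4 and 38.9% for Pcdhgb1. The Pcdhga7 values therefore rest almost wholly on sequence of its own. For Pcdhga4 and Pcdhgb1 the shared words include the 1038 exon bases annotated to both genes at the same positions, which is overlap and not resemblance. How reads there were treated is not given, so the values of both genes are uncertain in that part. Pcdhga4 also has 1570 exon bases shared with no other gene. On the opposite strand, Gm37165 overlaps 536 bases of Pcdhga7 and had 0 counts in every library.

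Genes for the kinds of factor known to act on the protocadherin promoters were taken from lists. Whether each listed gene acts there was not tested. CTCF and cohesin bind these promoters and their enhancers. Of 14 tested genes of that list, 5 rose and none fell (edgeR), beside 3.11% higher and 5.12% lower of all tested genes. The median log2 fold change was 0.59, against -0.01 over all tested genes. Smc1b, the meiotic SMC1 subunit of cohesin, rose from 121 ± 11.6 to 251 ± 22.6 CPM (SD, n = 3; log2 fold change 1.05, SE 0.14, adjusted p = 0.0161). Nipbl, the cohesin loader (0.82, adjusted p = 0.0231), Stag2 (0.73, adjusted p = 0.0280), Smc3 (0.82, adjusted p = 0.0335) and Pds5b (0.61, adjusted p = 0.0384) also rose. Ctcf itself stood at 23.0 ± 2.57 and 25.9 ± 2.39 CPM (0.17, adjusted p = 0.554). With GC content and exon length trends removed 0 of the 14 were called. Leaving out wild type 1, wild type 2 or knockout 1 also gave 0. Over all tested genes the fit with trends removed called only 0.0837%, and the fits without those libraries also called few. The calls of this list, like those over all genes, therefore depended on the processing and on single libraries.

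Among 12 genes of DNA methylation and silencing, 1 fell and none rose (edgeR), beside 5.12% lower and 3.11% higher of all tested genes. The median log2 fold change of the 12 was -5.13e-05. Uhrf1, which recruits the maintenance methyltransferase, fell from 135 ± 7.94 to 92.0 ± 2.19 CPM (SD, n = 3; -0.55, SE 0.13, adjusted p = 0.0367). This call was lost with the GC content and exon length trends removed and in 5 of the 6 fits that left out a library, all but the one without knockout 2. Smchd1, which is known to silence clustered protocadherin genes, stood at 21.0 ± 3.68 and 31.1 ± 2.87 CPM (0.56, adjusted p = 0.0895).

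No gene passed in edgeR among 19 that act downstream of the protocadherins or cleave them. Of the 19, 6 had an unadjusted edgeR p under 0.05 and 5 were called by DESeq2. Over all tested genes these shares were 27.1% and 18.3%. The median log2 fold change of the 19 was 0.32. Axin1 had a log2 fold change of -0.47 (adjusted p = 0.0628) and Abi1, of the WAVE complex, 0.77 (adjusted p = 0.115). Nor did any pass in edgeR among 19 tested protocadherins outside the clusters and large cadherins, where the median was -0.10. Of these, 2 had an unadjusted edgeR p under 0.05 and 0 were called by DESeq2, beside the same shares of all tested genes. Pcdh8 stood at 1.15 ± 0.326 and 2.20 ± 0.807 CPM (0.94, adjusted p = 0.153) and Pcdh11x had 1.26 (adjusted p = 0.173). Of 20 tested classical cadherins and catenins 1 rose and none fell, beside 3.11% and 5.12% of all tested genes, with a median of 0.17. Cdh12, a type II cadherin, rose from 1.24 ± 0.354 to 3.80 ± 0.271 CPM (1.61, SE 0.28, adjusted p = 0.0186, edgeR), and this call was lost with the GC content and exon length trends removed and without wild type 1, wild type 2, knockout 1 or knockout 3.

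Of 40 tested genes that lie between the members or within 500 kb of them, 1 rose and 3 fell (edgeR). Over all tested genes 3.11% rose and 5.12% fell, 8.23% in either direction. No regional effect is read from these counts. The median log2 fold change of the 40 was -0.23, against -0.01 over all tested genes. All 4 called genes lie upstream of the alpha cluster. Ndufa2, a subunit of respiratory complex I, fell from 94.4 ± 15.9 to 36.2 ± 8.99 CPM (SD, n = 3; -1.38, adjusted p = 0.0161), and Dnd1, a germ cell RNA-binding protein, from 8.09 ± 1.26 to 3.44 ± 0.443 CPM (-1.23, adjusted p = 0.0201). The spans of Ndufa2 and Tmco6 overlap at their ends, as do those of Dnd1 and Wdr55, which leaves reads there uncertain. Sra1 fell as well (-0.83, adjusted p = 0.0394), and Ik, a splicing factor, rose (0.64, adjusted p = 0.0303). Without wild type 1, wild type 2, knockout 1 or knockout 3 none of the 40 was called, and without wild type 3 only Ndufa2 was. None of these 4 calls held with the GC content and exon length trends removed. Between the beta and gamma clusters, Taf7 had 0.61 (adjusted p = 0.0594) and Slc25a2 -0.79 (adjusted p = 0.0874).

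Glia and neurons, the cells in which these clusters are best known, were looked for by 10 markers. Their summed level was 62.9 to 75.8 CPM in wild type and 48.9 to 53.2 CPM in knockout, without overlap, but most of it was Tubb3. Without Tubb3 the sums were 13.7 to 19.4 CPM and 16.0 to 18.8 CPM, which overlapped. Of the 9 tested markers, 1 rose (Syt1, log2 fold change 1.67, edgeR adjusted p = 0.0408) and 1 fell (Tubb3, -0.71, edgeR adjusted p = 0.0261). Over all tested genes 3.11% rose and 5.12% fell. None of the 10 was at 0 in all 6 libraries, and Snap25 was at 0 in every wild-type library and at 0.163, 0 and 0.125 CPM in knockout. These marker genes were named after their values were seen. The part of these markers in the protocadherin levels was not tested.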

How the data were processed

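Bulk RNA-seq of 6 testis samples was used. Per the labels' protocols, RNAiso Plus served for extraction, YEASEN Hieff NGS MaxUp Dual-mode reagents for the mRNA libraries and a NovaSeq for sequencing. Per the submitters' processing notes, Trimmomatic, HISAT2, HTSeq and build mm10 were used; versions, annotation release, strand setting and treatment of multiply mapped reads were not given in the sources used here. The authors deposited raw counts per gene, 1 file per sample, with 0 rows that name no gene. Symbols, exons and coordinates came from GENCODE M21 on GRCm38 (mm10), which matched 51633 identifiers and left 193 unmatched. In it 2 identifiers share the symbol Pcdha11 and were kept apart.

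All genes were fitted with the quasi-likelihood test of edgeR (version 4.0.16, in R 4.3.3), TMM scaling and filterByExpr, with Benjamini-Hochberg adjustment over 21518 genes and a threshold of 0.05. SEs were derived from each fold change with its F statistic. The fit was tested on simulated data. Alternatives were library size alone, size factors from DESeq2, no filter, 1 CPM in 3 samples and DESeq2 1.42.0. Others were a replicate block, GC content and exon length offsets (splines), and each sample left out. The offsets were fitted on 12751 genes.

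The members and lists were chosen with earlier results of these data known. Named genes were Kifc1, Pcdhga7, Pcdhga4, called members, the 3 highest of each cluster, the C-type genes, and up to 4 called or otherwise the 2 lowest-p genes of each list; others, such as Ctcf, Smchd1, Pds5b, Taf7 and Slc25a2, were chosen after their values were seen. Sequences of the genes were compared as 50-base words and are not printed.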

Additional observations from a re-analysis of the deposited data

How the results depend on the processing

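Against 1770 calls over all genes, DESeq2 gave 3274, no filter 1010, the replicate block 21, the offsets 18, and leaving out 1 library 1 to 3149 (1 without wild type 2 or knockout 1, 5 without wild type 1, 3149 without knockout 2). Of the members, 3 were called, 6 by DESeq2, 2 with the replicate block, 2 with the offsets, and 0 to 4 without 1 library (0 without wild type 2 or knockout 1, 1 without wild type 1). Log2 fold changes ran from -3.78 to -4.60 for Pcdhga7 and from 3.32 to 3.93 for Pcdhga4, whose directions the choice of members fixed. For CTCF and cohesin, library size alone gave 3, the block 0, the offsets 0 and leaving out 1 library 0 to 6. For DNA methylation and silencing, no filter gave 0, DESeq2 3, the block 0, the offsets 0 and leaving out 1 library 0 to 1. For signalling and cleavage partners, DESeq2 gave 5 and leaving out 1 library 0 to 2. For classical cadherins and catenins, DESeq2 gave 2, the block 0, the offsets 0 and leaving out 1 library 0 to 3. For chromosome 18 neighbours, DESeq2 gave 8, the block 0, the offsets 0 and leaving out 1 library 0 to 6. The cause was not tested. Some uncalled members changed sign. Leaving out 1 library, the log2 fold change ran from -0.20 to 0.0033 for Pcdha2, from -0.32 to 0.0586 for Pcdhb3, from -0.71 to 0.15 for Pcdhga12, from -0.70 to 0.18 for Pcdhac1, from -0.29 to 0.20 for Pcdhac2 and from -0.47 to 0.26 for Pcdhgc3. Pcdhac2 had -0.00377 with the replicate block and Pcdhgc3 0.14 with the offsets. Of 382 values for 30 genes, 281 kept direction and side of the threshold, 82 lost the call, 6 gained one and 13 changed sign. With DESeq2 size factors or library size alone the cluster sums moved by less than 1 SD. Samples with the same number did not deviate together (r -0.286, -0.056 and -0.126), so the numbers were not taken as pairs. Beta genes with few counts give wide errors.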

Other observations

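Pcdhgb8, annotated as a polymorphic pseudogene inside the gamma cluster and therefore not counted among the protein-coding members, was also high in a single library. It had 0.793, 0.967 and 1.31 CPM in the wild-type libraries and 12.9, 1.25 and 1.03 CPM in the knockout libraries, so that knockout 1, which held no such gene among the members, was the high one. It was chosen after its values were seen.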
